A study of Mus musculus with 6 samples.

Results

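The 9 genes described here encode the coat proteins of caveolae and the EHD ATPases that shape and recycle membranes. They are the caveolin genes Cav1 and Cav2, the cavin genes Cavin1, Cavin2 and Cavin3, and Ehd1, Ehd2, Ehd3 and Ehd4. Each was found by its symbol among the 54532 genes of the deposited FPKM table, where FPKM is a read count scaled to gene length and library size. The set was chosen by these same FPKM values, with the difference between knockdown and control libraries known. That difference is therefore given below as a description. Where a gene of the set is said to pass a threshold, that is description too and not a test.

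Caveolae are small flask-shaped pits of the plasma membrane that are abundant in fibroblasts, adipocytes, muscle and endothelium. Caveolins are hairpin membrane proteins that oligomerise in the bulb of the pit, and cavins are cytosolic proteins that coat it from outside. EHD proteins are dynamin-related ATPases that form rings on membranes: EHD2 sits at the caveolar neck and stabilises caveolae at the cell surface, whereas EHD1, EHD3 and EHD4 act mainly on recycling endosomes.

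All libraries came from mouse embryonic fibroblasts that express the adenoviral oncoprotein E1A and the activated Ras HRasV12. The 3 shMettl3_dox libraries carried a hairpin against Mettl3, the gene of the catalytic subunit of the mRNA N6-methyladenosine (m6A) methyltransferase. The 3 shLuc_dox libraries carried a control hairpin. Both groups had 0.2 ug/ml doxorubicin, a topoisomerase II poison that breaks DNA, for 6 hours. The series set out to find genes that depend on Mettl3 under DNA damage, and no library without doxorubicin was analysed here. The labels name no clone, and the column names of the authors' deposited table of lower genes give all 3 knockdown libraries the same hairpin number.

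Reads recovered from the FPKM values summed to 17737550 to 25586823 in the shMettl3_dox libraries and 17095036 to 20246498 in the shLuc_dox libraries. Mettl3 stood at 1.29, 1.53 and 1.65 FPKM in shMettl3_dox, against 2.47, 3.14 and 2.59 FPKM in shLuc_dox. The ratio of its means was 0.545 (limma adjusted p = 0.00861), so the target was lower in every knockdown library. Replicate 3 of shMettl3_dox stood apart from its group: its chi-square per degree of freedom against the other shMettl3_dox libraries was 13.1 and 14.9, where all other replicate pairs lay between 3.54 and 4.90. Of 12098 genes that averaged 1 FPKM or more over the 6 libraries, 1763 were higher and 1633 lower in shMettl3_dox at a limma adjusted p under 0.05. Scaling to the sum of protein-coding FPKM moved that split to 1264 higher and 1922 lower. Of 11 fibroblast markers, 4 reached a mean of 1 FPKM (Vim, Fn1, Pdgfra and Pdgfrb). Col1a1, Col1a2, Col3a1, Thy1, Dcn, Lum and S100a4 stayed under it, so the marker set was only partly expressed. The name fibroblast is that of the labels and was not drawn from these markers.

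Of the 9 genes, 8 passed the filter of 1 FPKM and Ehd3 did not. Among these 8, Cavin2, Cavin3, Ehd1 and Ehd2 were past the threshold on the higher side and Ehd4 on the lower, beside a background of 14.6% of tested genes called higher and 13.5% called lower (28.1% in either direction). The median difference in log2(FPKM + 1) was 0.26 over the 8 genes and 0.01 over all tested genes. Over all tested genes, 23.6% were higher and 21.5% lower without overlap between groups (45.1% in either direction). The counts among the 8 genes describe the choice of genes and support nothing further. In bulk RNA a change in the share of cells that express a gene and a change in RNA per cell cannot be told apart.

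**Figure D1:**
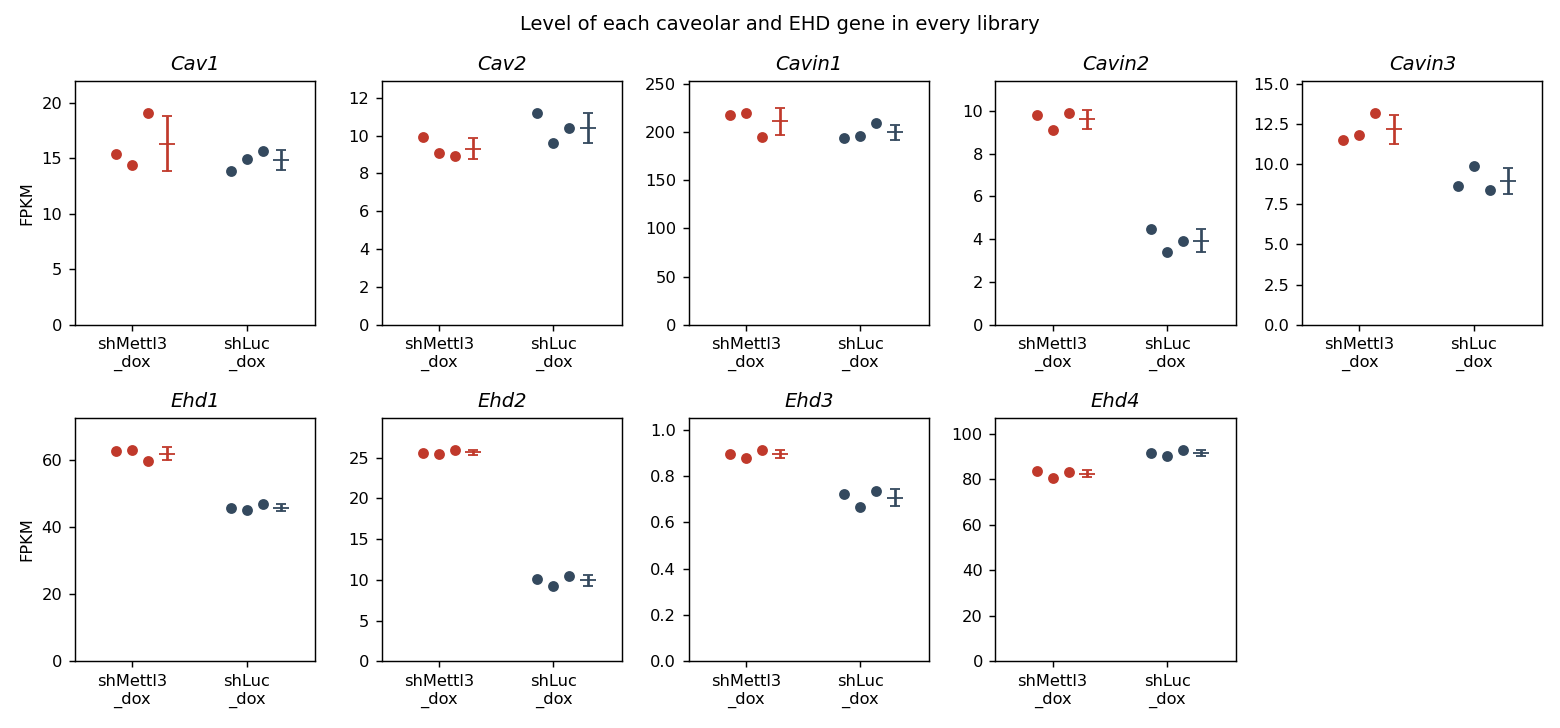
FPKM of each of the 9 genes in the 3 shMettl3_dox libraries (red, left) and the 3 shLuc_dox libraries (dark, right); points are libraries, in replicate order, and the bar beside them is the mean ± SD. The groups stand clear of each other for Cavin2, Cavin3 and the 4 EHD genes and overlap for Cav1, Cav2 and Cavin1. Of all 12098 tested genes, 45.1% showed no overlap between groups.

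The promoters of the members with the largest differences, Ehd2 and Cavin2, and of the lower member, Ehd4, are shown to compare their sequence. They are the bases before the RefSeq start (GRCm38.p6), without those inside the GENCODE gene, 5′ to 3′ on the gene's strand. Ehd2 is chr7:15967568-15967785 (minus), Cavin2 is chr1:51288876-51289125 (plus) and Ehd4 is chr2:120154607-120154825 (minus). Capitals mark a GC box, GGGCGG, on either strand; that of Ehd4 lies in the bases left out.
Ehd2: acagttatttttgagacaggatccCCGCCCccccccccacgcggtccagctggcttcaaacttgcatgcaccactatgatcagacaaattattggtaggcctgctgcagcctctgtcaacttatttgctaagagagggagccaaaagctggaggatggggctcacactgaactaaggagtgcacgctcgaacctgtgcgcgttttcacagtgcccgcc
Cavin2: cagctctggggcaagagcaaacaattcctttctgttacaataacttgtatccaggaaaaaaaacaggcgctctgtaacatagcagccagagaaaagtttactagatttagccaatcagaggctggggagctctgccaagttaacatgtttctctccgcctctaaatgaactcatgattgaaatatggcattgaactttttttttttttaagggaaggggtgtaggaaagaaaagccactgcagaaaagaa
Ehd4: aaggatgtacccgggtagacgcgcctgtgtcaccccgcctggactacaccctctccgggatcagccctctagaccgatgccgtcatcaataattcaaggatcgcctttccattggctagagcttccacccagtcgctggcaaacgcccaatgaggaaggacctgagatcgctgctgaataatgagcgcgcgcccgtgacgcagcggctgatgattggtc

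Of the 9 genes 7 had a RefSeq promoter, all but Cavin3 and Ehd1. The 250 bases before the start were searched on both strands for TATAAA, the GC box GGGCGG, the TEAD motif GGAATG, the AP-1 motif TGANTCA and the CArG box of SRF. Among 32536 promoter windows of that length these occurred in 12.3%, 33.0%, 12.6%, 6.7% and 1.5%. Cavin2 and Ehd3 held none of the 5, nor did 1 of the 2 Cav1 windows. The Cavin2 window was 40.4% GC, at percentile 13.2 of all windows. In the other 6 genes the windows were 58.0% to 67.6% GC. A GC box occurred in windows of Cav1 (1 of its 2 windows), Cav2, Cavin1, Ehd2 and Ehd4, and TATAAA in that same Cav1 window. The AP-1 motif occurred before Cav2 and the TEAD motif in the Cavin1 windows. All windows precede a RefSeq start, but those of Cavin1 and Ehd3 and the other Cav1 window lie wholly inside the GENCODE gene. The Cavin1 matches and the Ehd4 GC box therefore lie inside the annotated gene, not before it. Bases inside the gene were kept in these motif and GC values. No CArG box occurred in any of the 7. A match is a string of letters and was not tested for binding.

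Caveolin 1 is the structural caveolin without which non-muscle cells form no caveolae, and caveolin 2 is its partner in mixed oligomers. The genes are neighbours on mouse chromosome 6 (mm10), Cav2 (ENSMUSG00000000058) at 17281185 to 17289115 and Cav1 (ENSMUSG00000007655) at 17306335 to 17341452, both on the plus strand. Cav1 was measured at 15.4, 14.4 and 19.1 FPKM in shMettl3_dox, against 13.9, 14.9 and 15.7 FPKM in shLuc_dox. The groups overlapped, and the high value was that of shMettl3_dox replicate 3. The Cav1 difference in log2(FPKM + 1) was 0.12 with a limma standard error (SE) of 0.102, and 0.0038 without that library. Cav2 was measured at 9.94, 9.07 and 8.92 FPKM in shMettl3_dox, against 11.2, 9.63 and 10.4 FPKM in shLuc_dox. Here too the groups overlapped, with a difference of -0.15 (SE 0.0669).

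Taken per length, Cav1 exceeded Cav2 in every library, by 1.54, 1.59 and 2.14 times in shMettl3_dox and by 1.25, 1.55 and 1.51 times in shLuc_dox. Summed caveolin FPKM averaged 25.61 ± 2.29 in shMettl3_dox and 25.27 ± 0.847 in shLuc_dox (SD, n = 3 each). That total differed between groups by less than the spread between replicates.

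Cavin 1 is the cavin required for caveola formation in all tissues, and it carries the other cavins to the caveolin-bearing membrane. Cavin1 (ENSMUSG00000004044, chromosome 11, 100956733 to 100970887, minus strand) reached 218, 220 and 195 FPKM in shMettl3_dox, against 194, 196 and 209 FPKM in shLuc_dox. The groups overlapped, with a difference of 0.08 (SE 0.0602). The Cavin1 difference was 0.13 without shMettl3_dox replicate 3, the lowest library of its group, and -0.03 after quantile normalization, so its direction depended on the scaling. Its mean level ranked at percentile 98.7 of tested genes.

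Cavin 2 is a cavin that can bend and tubulate caveolar membrane. Cavin2, the gene with the GC-poor promoter (ENSMUSG00000045954, chromosome 1, 51289126 to 51302960, plus strand), was measured at 9.83, 9.11 and 9.91 FPKM in shMettl3_dox, against 4.48, 3.42 and 3.91 FPKM in shLuc_dox. Every shMettl3_dox library was above every shLuc_dox library. Its mean was 9.62 ± 0.437 FPKM in shMettl3_dox and 3.94 ± 0.532 FPKM in shLuc_dox, a ratio of 2.44. The difference in log2(FPKM + 1) was 1.11 (SE 0.0856), and 24 of the 12098 tested genes had a higher one. The pseudocount shrinks it at this level: edgeR, run on the recovered reads, gave 1.28. Behind the Cavin2 values stood 487 to 757 reads in shMettl3_dox and 201 to 249 in shLuc_dox.

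Cavin 3 is the cavin that binds protein kinase C delta. Cavin3 (ENSMUSG00000037060, chromosome 7, 105480083 to 105482300, minus strand) had values of 11.5, 11.8 and 13.2 FPKM in shMettl3_dox, against 8.63, 9.90 and 8.40 FPKM in shLuc_dox. The groups did not overlap, and the difference was 0.40 (SE 0.0760). A gene model on the opposite strand, Gm45667, shares 374 exon bases with Cavin3 but reached at most 0.167 FPKM.

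Cavin1 outweighed both other cavins in every library. It made up 90.6% ± 1.05 of summed cavin FPKM in shMettl3_dox and 93.9% ± 0.444 in shLuc_dox (SD, n = 3 each). The Cavin2 share was 4.14% ± 0.384 in shMettl3_dox, against 1.85% ± 0.273 in shLuc_dox. For Cavin3 the shares were 5.24% ± 0.692 in shMettl3_dox and 4.23% ± 0.467 in shLuc_dox. Per length there were 22.2, 24.2 and 19.7 times as much Cavin1 as Cavin2 in shMettl3_dox, and 43.4, 57.4 and 53.4 times in shLuc_dox. The ratio of Cavin1 to Cav1 lay at 14.2, 15.3 and 10.2 in shMettl3_dox and at 13.9, 13.2 and 13.3 in shLuc_dox. This last ratio overlapped between groups and was lowest in shMettl3_dox replicate 3.

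EHD2 is an EHD protein that binds caveolae. Ehd2 (ENSMUSG00000074364, chromosome 7, 15946958 to 15967567, minus strand) stood at 25.6, 25.4 and 26.0 FPKM in shMettl3_dox, against 10.1, 9.20 and 10.5 FPKM in shLuc_dox. No shLuc_dox library came near the lowest shMettl3_dox library. Its mean was 25.7 ± 0.326 FPKM in shMettl3_dox and 9.92 ± 0.653 FPKM in shLuc_dox, a ratio of 2.59. The difference in log2(FPKM + 1) was 1.29 (SE 0.0534), the largest of the 8 tested genes, and 14 of all 12098 tested genes had a higher one. Its 2274 to 3309 reads in shMettl3_dox and 901 to 947 in shLuc_dox make it better counted than Cavin2.

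EHD1 drives the return of receptors from the recycling endosome to the surface. Ehd1 (ENSMUSG00000024772, chromosome 19, 6276725 to 6300096, plus strand) was measured at 62.8, 63.2 and 59.7 FPKM in shMettl3_dox, against 45.7, 45.1 and 46.9 FPKM in shLuc_dox. The groups were well separated, with a difference of 0.42 (SE 0.0402) and a ratio of means of 1.35. EHD4 is its relative in early endosomal transport. Ehd4 (ENSMUSG00000027293, chromosome 2, 120089175 to 120154606, minus strand) stood at 83.8, 80.6 and 83.2 FPKM in shMettl3_dox, against 91.4, 90.3 and 93.1 FPKM in shLuc_dox.

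Ehd4 was the single member lower in every shMettl3_dox library than in any shLuc_dox library, with a difference of -0.15 (SE 0.0367). Of the 9 genes only Ehd4 appears among the 1960 lower genes listed in the authors' deposited table, with a log2 fold change there of -0.1435. Its place past the limma threshold was lost when shMettl3_dox replicate 1 or 2, or any shLuc_dox replicate, was left out, with differences of -0.16 to -0.13, and in eBayes without the trend. Ehd3 (ENSMUSG00000024065, chromosome 17, 73804134 to 73832094, plus strand), which acts with EHD1 in endosomal recycling, was measured at 0.895, 0.880 and 0.915 FPKM in shMettl3_dox, against 0.721, 0.667 and 0.734 FPKM in shLuc_dox. These values did not overlap but came from 101 to 148 reads in shMettl3_dox and 81 to 88 in shLuc_dox.

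Each shMettl3_dox library held more summed EHD FPKM (169.9 to 173.1) than any shLuc_dox library (145.3 to 151.2). Ehd4 was the leading member in all 6 libraries, with 48.3% ± 0.805 of the sum in shMettl3_dox and 61.8% ± 0.307 in shLuc_dox. The Ehd2 share was 15.0% ± 0.270 in shMettl3_dox, against 6.69% ± 0.319 in shLuc_dox. Ehd1 made up 36.2% ± 1.01 in shMettl3_dox and 31.0% ± 0.0716 in shLuc_dox. Per length, Ehd4 exceeded Ehd2 by 3.27, 3.18 and 3.20 times in shMettl3_dox and by 9.03, 9.82 and 8.90 times in shLuc_dox. Ehd2 exceeded Cav1 in shMettl3_dox (ratios of 1.67, 1.76 and 1.36) and was below it in shLuc_dox (0.725, 0.618 and 0.665).

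**Figure D2:**
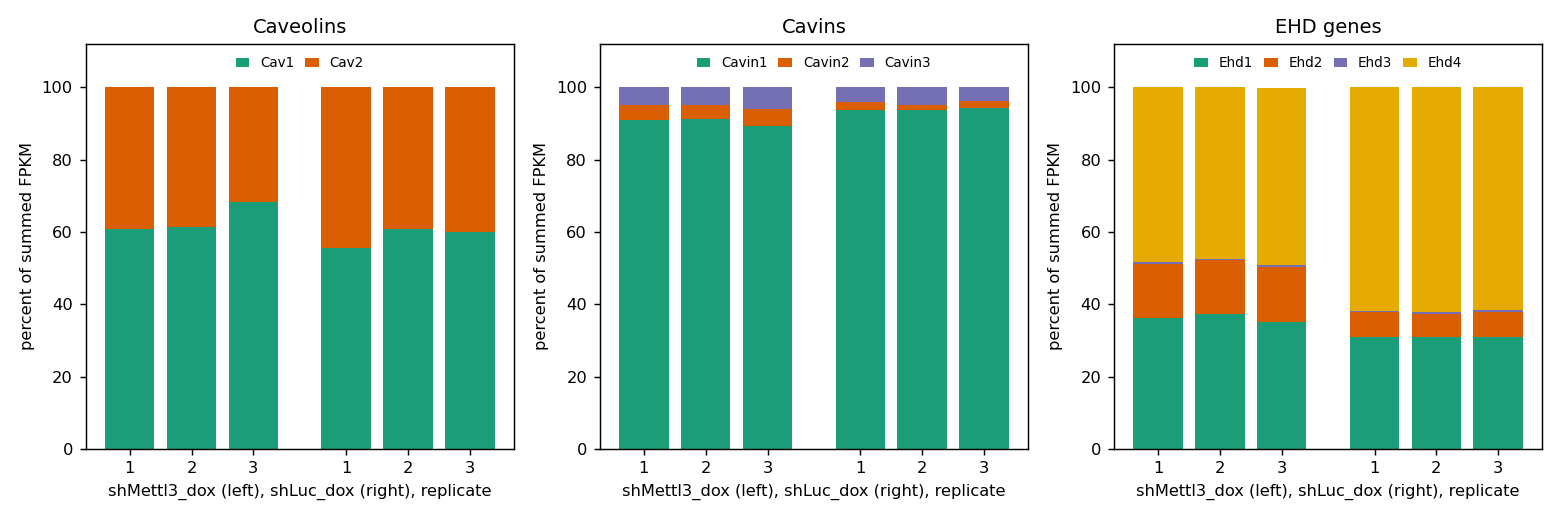
Share of each family's summed FPKM held by each gene, in percent, with 1 bar per library (shMettl3_dox replicates 1 to 3 left, shLuc_dox replicates 1 to 3 right). The Ehd2 band fills about 15.0% in shMettl3_dox and 6.69% in shLuc_dox, and the Ehd4 band is smaller in shMettl3_dox. The shares within a family depend on each other and are not levels. Mean FPKM in shMettl3_dox and shLuc_dox was 82.6 and 91.6 for Ehd4 and 211 and 200 for Cavin1.

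Ordered by level per length, the shMettl3_dox libraries ran Cavin1, Ehd4, Ehd1, Ehd2, Cav1, Cavin3, Cavin2, Cav2 and Ehd3. Of these neighbours only Cavin2 (9.11 to 9.91 FPKM) and Cav2 (8.92 to 9.94 FPKM) overlapped. The shLuc_dox libraries ran Cavin1, Ehd4, Ehd1, Cav1, Cav2, Ehd2, Cavin3, Cavin2 and Ehd3. There Ehd2 (9.20 to 10.5 FPKM) overlapped with both Cav2 (9.63 to 11.2 FPKM) and Cavin3 (8.40 to 9.90 FPKM). Ehd2 thus stood at rank 4 in shMettl3_dox and at rank 6 in shLuc_dox, and Cavin2 at rank 7 in shMettl3_dox and rank 8 in shLuc_dox.

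**Figure D3:**
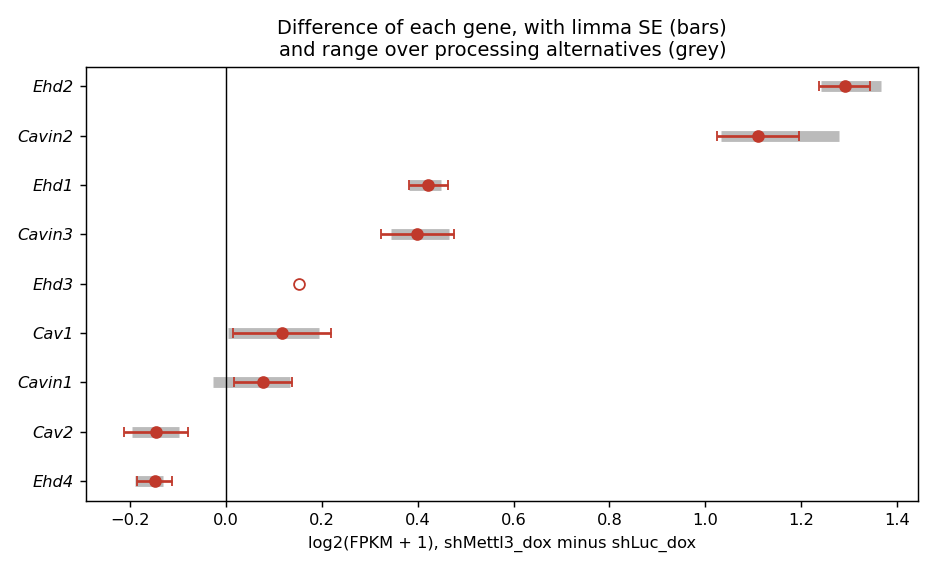
Difference in log2(FPKM + 1), shMettl3_dox minus shLuc_dox, for the 9 genes; red bars are limma SE, grey bars span the processing alternatives and the open circle is Ehd3, which was below the filter. Ehd2 and Cavin2 lie above 1, Ehd1 and Cavin3 near 0.4, and the grey bar of Cavin1 crosses 0.

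The genes most like the 3 members with the largest differences were sought by the root mean square distance between log2(FPKM + 1) profiles, centred on their means, over the 6 libraries. Nearest to Ehd2 were Klf2, a Kruppel-like transcription factor (distance 0.103), Yif1b (0.112) and Ctgf, a secreted matricellular protein (0.129). Nearest to Cavin2 were the galectin gene Lgals9 (0.109), Ctgf (0.114) and Serpinf1 (0.119), which encodes a secreted serpin. Nearest to Ehd1 were the phosphatase gene Ppm1g (0.0217), Riox2 (0.0246) and the serine hydroxymethyltransferase gene Shmt2 (0.0291). With 3 libraries a group this distance mostly reflects the difference between groups. Ctgf, for example, was at 162, 158 and 175 FPKM in shMettl3_dox, against 75.6, 78.9 and 79.4 FPKM in shLuc_dox.

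METTL3 methylates adenosines mostly in the DRACH sequence context, of which GGACT is a strongly methylated form. In the annotated transcript with the longest coding sequence, 8 of the 9 genes had fewer GGACT per kilobase than the median of 1.04 over 10653 tested protein-coding genes. Ehd2 held 1 such site in 5119 bases (0.20 per kilobase) and Cavin2 1 in 3055 bases (0.33 per kilobase). Cav2 and Cavin3 held 0, and Cav1, Cavin1, Ehd1 and Ehd4 held 2 each. The exception was Ehd3, with 9 sites (2.46 per kilobase). For DRACH as a whole, 5 of the 9 genes lay below the median of 20.0 per kilobase and 4 above, from 13.84 in Cavin3 to 21.95 in Cav2. The 3′ untranslated region was longer than the median of 964 bases in 8 of the 9 genes, with 3283 bases in Ehd2, 1538 in Cavin2 and 738 in Cavin3. Methylation itself was not measured in these libraries.

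The EHD coding sequences are close relatives, so reads could in principle be counted to the wrong member. Aligned coding bases were 79.9% identical between Ehd1 and Ehd3, which shared an exact run of 40 bases, the longest of any pair. Ehd2 was 69.7% to 71.7% identical to the other EHD genes, with exact runs of 16 to 26 bases. Between caveolins or cavins the runs were 11 to 14 bases. The read length and the treatment of multiply mapped reads are not given in the sources used here, and the part of misassigned reads in the low Ehd3 values was not tested.

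The remaining machinery was read from 4 lists of genes, and these genes were tested. Over all tested genes 14.6% were called higher and 13.5% lower (28.1% in either direction). The count of calls in each list was not tested against those shares. Of the caveolar partners, 1 of 9 tested rose and 0 fell. In limma 0 were lower at an unadjusted p under 0.05 too, and edgeR and DESeq2 called 0 lower. The gene that rose was Flna, which encodes filamin A, an actin crosslinker that links caveolae to stress fibres. It was at 70.8, 67.4 and 66.5 FPKM in shMettl3_dox, against 51.3, 51.8 and 54.7 FPKM in shLuc_dox (log2 difference 0.37, SE 0.0441, limma adjusted p = 0.00175). The neck-binding F-BAR gene Pacsin2 was at 20.0 ± 1.79 and 19.4 ± 0.585 FPKM in shMettl3_dox and shLuc_dox, and the fission GTPase gene Dnm2 at 31.0 ± 0.465 and 32.4 ± 0.875. Neither passed (limma adjusted p = 0.689 and 0.266), nor did the kinase genes Src (0.255) and Fyn (0.221). Pacsin1, the neuronal relative of Pacsin2, was below the filter at 0.103, 0.0350 and 0.0988 FPKM in shMettl3_dox, against 0.455, 0.427 and 0.328 FPKM in shLuc_dox, and passed on the lower side when no filter was used. The authors' deposited table lists Pacsin1 as lower, with a log2 fold change of -2.31 and an adjusted p of 2.37e-05 by the authors. Of the muscle paralogues, Cav3 was listed at 0 in every library and Cavin4 averaged 1.27 ± 0.0787 FPKM in shMettl3_dox and 1.81 ± 0.529 FPKM in shLuc_dox (limma adjusted p = 0.207).

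Among 21 tested EHD partners and recycling genes 2 rose, 2 fell and 17 did not pass, with a median difference of 0.04. Rab35, a GTPase of endosomal recycling, was at 37.8 ± 0.554 FPKM in shMettl3_dox and 31.1 ± 0.659 FPKM in shLuc_dox (0.27, limma adjusted p = 0.00282). Rab11fip5, a Rab11 effector, differed by 0.33 (limma adjusted p = 0.00766). Micall1, which encodes the scaffold that recruits EHD1 to tubular endosomes, was at 12.3, 11.9 and 11.0 FPKM in shMettl3_dox, against 17.0, 17.4 and 16.6 FPKM in shLuc_dox. It fell by 0.50 on the log2 scale (limma adjusted p = 0.00104), whereas its partner Ehd1 was higher. Rab11a differed by -0.19 (limma adjusted p = 0.0185) and missed the threshold without shLuc_dox replicate 2 (0.0694) or shMettl3_dox replicate 1 (0.0700), where the list had 1 fall. The transferrin receptor gene Tfrc, whose product is the classical recycling cargo, stood at 26.2 ± 0.786 and 25.2 ± 1.18 FPKM in shMettl3_dox and shLuc_dox (limma adjusted p = 0.465).

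Clathrin coats are the other main entry route. Of 26 tested clathrin and AP2 genes 4 rose, 5 fell and 17 did not pass, with a median difference of -0.06. The AP2 subunit gene Ap2a2 differed by 0.36 (limma adjusted p = 0.00405). Bin1, a membrane-curving BAR protein gene, differed by -0.35 (limma adjusted p = 0.00467), the AP2-binding Necap1 by -0.29 (0.00584) and the adaptor gene Ston2 by -0.44 (0.00783). The other genes past the threshold, named after their values were seen, were Dab2, Epn2 and Snx9 on the higher side (0.38, 0.27 and 0.15) and Itsn1 and Hip1r on the lower (-0.27 and -0.22). Leaving out shMettl3_dox replicate 1 gave 2 rises and 3 falls. There were also 2 rises without shLuc_dox replicate 1 or 3, and 3 falls without shMettl3_dox replicate 2 or shLuc_dox replicate 2 or 3.

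Of 10 tested genes of other clathrin-independent routes 1 rose and 3 fell. Flot2, a flotillin gene of a distinct raft scaffold, was at 48.1 ± 0.903 FPKM in shMettl3_dox and 56.9 ± 0.577 FPKM in shLuc_dox (-0.24, limma adjusted p = 0.00406). Its partner Flot1 did not pass (0.14, limma adjusted p = 0.338). Baiap2 differed by -0.50 (limma adjusted p = 0.00226) and the endophilin gene Sh3gl3 by -0.47 (0.00511). Arf1 differed by 0.18 (limma adjusted p = 0.0261), but missed the threshold when any shLuc_dox replicate, or shMettl3_dox replicate 1 or 2, was left out (limma adjusted p from 0.0521 to 0.0910). It also missed it with protein-coding or quantile scaling or without the filter (0.0649 to 0.171).

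**Figure D4:**
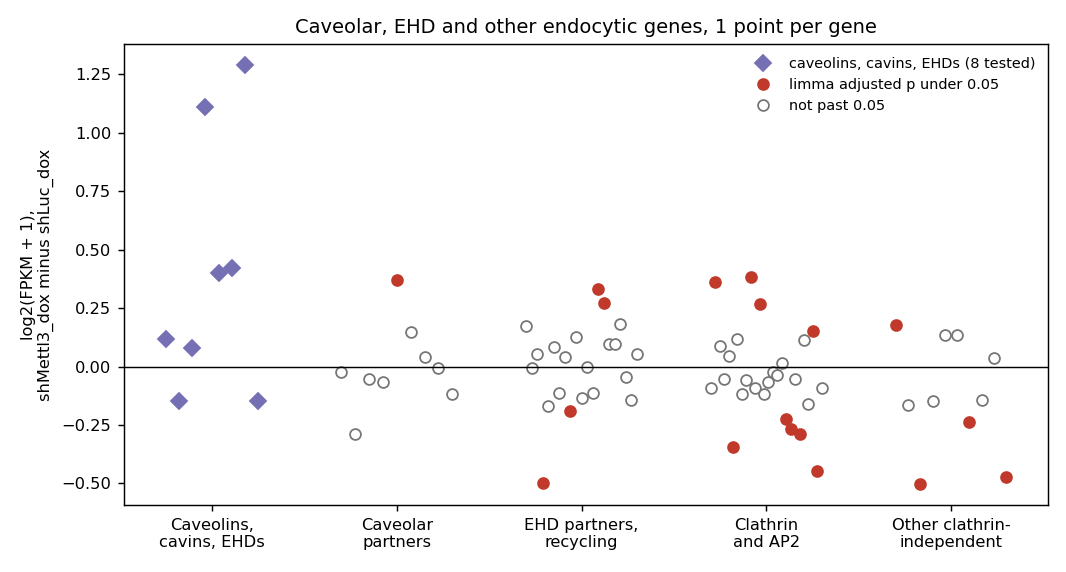
Difference in log2(FPKM + 1), shMettl3_dox minus shLuc_dox, with 1 point per tested gene, for the 8 tested members (diamonds) and 4 lists of endocytic genes (circles, filled where the limma adjusted p was under 0.05). The list genes lie between -0.50 and 0.38, and Ehd2 and Cavin2 lie above 1. The members were chosen with this difference known, so their spread cannot be weighed against that of the lists.

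Markers of endothelial cells and adipocytes, which are rich in caveolae, were near 0, while the muscle marker Des was not. The 6 endothelial markers summed to 0.210 to 0.362 FPKM in shMettl3_dox and 0.334 to 0.386 FPKM in shLuc_dox, with Emcn at 0 in every library. The 5 adipocyte markers summed to 0.0127 to 0.0755 FPKM in shMettl3_dox and 0.0355 to 0.161 FPKM in shLuc_dox, with Adipoq and Lep at 0. Muscle markers summed to 2.64 to 3.31 FPKM in shMettl3_dox and 6.05 to 6.84 FPKM in shLuc_dox, nearly all of it Des (2.58, 3.30 and 2.52 FPKM in shMettl3_dox, against 6.81, 5.95 and 6.10 FPKM in shLuc_dox). Epithelial markers summed to 29.3 to 35.8 FPKM in shMettl3_dox and 49.2 to 52.8 FPKM in shLuc_dox, mostly Krt18, and leukocyte markers to 9.40 to 11.1 and 15.3 to 18.0 FPKM, mostly Cd68. The fibroblast sum was 777 to 853 FPKM in shMettl3_dox and 894 to 947 FPKM in shLuc_dox, mostly Vim, which averaged 703 ± 34.0 FPKM in shMettl3_dox and 818 ± 25.7 FPKM in shLuc_dox. Of the tested fibroblast markers, Vim and Pdgfra passed on the lower side (limma adjusted p = 0.0259 and 0.018). Fn1 and Pdgfrb did not pass (limma adjusted p = 0.174 and 0.254). Pdgfrb (4.93 ± 0.0947 FPKM in shMettl3_dox and 4.57 ± 0.135 FPKM in shLuc_dox) was higher without overlap. Over all tested genes 45.1% showed no overlap in either direction. Below the filter, Col1a2 (0.247 FPKM in shMettl3_dox and 0.129 in shLuc_dox) and S100a4 (0.487 and 0.0911) were also higher without overlap. Neither was tested, and both rested on few reads. Col1a2 had 48 to 90 reads in shMettl3_dox and 25 to 33 in shLuc_dox, and S100a4 had 3 to 12 and 0 to 2. Fn1 overlapped (95.6 ± 5.86 FPKM in shMettl3_dox and 88.5 ± 2.04 FPKM in shLuc_dox). The muscle, epithelial and leukocyte sums were lower in each shMettl3_dox library than in any shLuc_dox library, and the part of these markers in the members' values was not tested.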

How the data were processed

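RNA-seq was made from total RNA with a NEBNext Ultra kit, per the labels' protocols. Tools named in the submitters' processing notes are STAR, fastp, DESeq2 and featureCounts 1.5.3, with mm10 as the build. Whether strand was used in counting is not stated there. The authors deposited FPKM for 6 libraries, scaled by them to gene length and library size. A second deposited table gives normalized read count signal, log2 fold changes and p-values by the authors for 1960 lower genes.

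Differences were computed on log2(FPKM + 1) with limma 3.58.1 in R 4.3.3 (eBayes with trend, two-sided, Benjamini-Hochberg over the 12098 genes averaging 1 FPKM or more, threshold 0.05). Values on this scale understate changes of low genes. Reads were recovered as FPKM times the GENCODE M21 exon length over 1 step per library; 96.7% of genes above 0 gave whole reads within 0.001 of a read in every library, and the rest were rounded. Reads of the 9 members are given rounded to whole reads. These reads entered edgeR 4.0.16 (quasi-likelihood) and DESeq2 1.42.0 as alternatives. Coordinates are from GENCODE M21 (mm10), 1-based. Figures were drawn with matplotlib 3.10.9.

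The members, lists and markers were chosen with earlier results of these data known. Named are Mettl3, the members, the 4 genes (or fewer) of lowest unadjusted p in each list, and the 3 protein-coding genes nearest to each of the 3 members with the largest difference. Pacsin1, Pacsin2, Dnm2, Cav3, Dab2, Epn2, Snx9, Itsn1, Hip1r, Tfrc and Flot1 were named after their values were seen. No label ties replicates to separate cultures: the spread behind each p-value may therefore be technical. Alternatives were other pseudocounts, filters and scalings, no trend, a replicate block, count tests and leaving out each library.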

Additional observations from a re-analysis of the deposited data

How the results depend on the processing

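Ehd2, Cavin2, Ehd1 and Cavin3 stayed past the threshold on the higher side in each of the 16 alternatives run. Their log2 differences were 1.24 to 1.37, 1.03 to 1.28, 0.38 to 0.45 and 0.34 to 0.46, in that order. These genes were chosen by the same libraries, so their staying past the threshold describes the processing only and is no support for the differences. The count of members on the lower side, 1 (Ehd4), was 0 in eBayes without the trend and 0 to 1 with a library left out. Over all genes the higher calls ranged from 1013 to 1854 and the lower calls from 1060 to 1646 with a library left out. In the lists, leaving out a library gave 1 to 2 falls among EHD partners, 2 to 4 rises and 3 to 5 falls among clathrin genes, and 0 to 1 rises among the other routes. The clathrin rises numbered 2 with protein-coding scaling and 2 in eBayes without the trend. The other routes had 0 rises without the filter, with protein-coding scaling and with quantile normalization (limma; as reported, edgeR and DESeq2 each called 1 and unadjusted limma 2), and 5 falls by edgeR and 5 by DESeq2. The caveolar partners had 1 fall without the filter. The cause of these shifts was not tested, except that fewer libraries leave fewer degrees of freedom. For 25 other genes, 384 of 394 values kept direction and side of the threshold and 10 lost the call. These are Mettl3, the list genes of lowest unadjusted p and the genes nearest to the members. Genes named after their values were seen, and the marker genes, are not in this count. The labels give same-numbered libraries no tie beyond the number. Correlations of their deviations were 0.034, -0.0068 and 0.0631, and those of differently numbered libraries ran from -0.101 to 0.0834. These values cannot show whether same-numbered libraries were handled together. With the replicate number as a block 1676 genes were higher and 1525 lower. In that fit 4 members were higher and 1 lower, as without the block. Depth limits Ehd3 most among the 9 members, at 81 to 148 reads a library; of the list genes, Cavin4 had 48 to 80 and Pacsin1 4 to 56.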
